A study of Mus musculus with 3 samples.

Results

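The cells described here are SST-lineage cortical interneurons of the mouse at the start and the end of their first postnatal days, P1 and P5. They were chosen by 5 measured values. A cell had to hold more than 700 detected genes, less than 10% of its UMIs (unique molecular identifiers, each marking 1 captured mRNA molecule) from mitochondrial genes, at least 1 UMI of Lhx6, and no UMI of Nos1 or Neurod6. Lhx6 encodes a transcription factor that interneurons born in the medial ganglionic eminence (MGE) need to migrate and mature. Nos1 marks long-range projecting (LRP) SST+ neurons, and Neurod6 marks excitatory neurons. The rule found 1594 cells at P1 and 1872 at P5, which is 3466 of the 7846 cells in the libraries of these stages and of 12324 cells in the whole series. The same rule found 3255 cells at E16.5, and their levels are given as context.

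Every library came from the neocortex (NCx) of SstCre/+;RCE mice, in which Cre recombinase made under Sst control switches on a green fluorescent protein (GFP) reporter for good. GFP therefore marks all cells that ever expressed Sst-Cre, and living GFP+ cells were sorted. The P1 and P5 libraries each pooled tissue from 3 animals and the E16.5 library from 6 animals, with 1 library per stage. Trypsin and DNase were added to the digestion at P5, and a Percoll step to remove myelin was used at P1 and P5. With 1 library per stage, age cannot be told apart from library, dissociation, or the animals in the pool, so that no test was made and each value below compares 2 libraries. The 95% intervals cover counting error only.

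MGE interneurons reach the NCx as migrating neurons with a leading process, held in their streams by chemokine signaling, and then settle in their layer. During the first postnatal week, they stop moving, extend axons, receive their first synapses, and begin to assemble the machinery for GABA release and for firing. Growth programs of young neurons, such as high levels of SoxC transcription factors, are known to decline over the same time, and genes for ion pumps, potassium channels, and energy metabolism are known to increase.

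The chosen cells had the markers of interneurons. The 11 interneuron genes compared summed to 7125, 6661, and 5051 CPM (the UMI count scaled to 1000000 UMIs outside mitochondrial and ribosomal protein genes) at E16.5, P1, and P5, with a median log2 ratio of -0.33 from P1 to P5. Of these, 7 were lower at P5, with Dlx2 and Maf at least 2-fold lower and Slc32a1 at least 2-fold higher. Gad2, an enzyme that makes GABA, reached 447.7 CPM at P1 and 553.6 CPM at P5, and Satb1, a transcription factor of MGE interneurons, 732.5 and 795.6 CPM. Sst, which encodes the neuropeptide somatostatin, was at 3359, 1751, and 1622 CPM at E16.5, P1, and P5, and 71.2% (95% Clopper-Pearson interval 68.9% to 73.4%) and 70.9% (68.8% to 73.0%) of cells had an Sst UMI at P1 and P5. Among cells with Neurod6 and no Lhx6, which gauge free RNA in the droplets, 25.7% of 35 at P1 and 5.26% of 19 at P5 had an Sst UMI, at median depths of 5316 and 3974 UMIs compared with 3811 and 4752 in the chosen cells. Markers of excitatory neurons summed to 4.79 and 4.55 CPM over 7 genes at P1 and P5, of astrocytes to 1.02 and 3.93 CPM over 5, of microglia to 0.581 and 0.738 CPM over 4, of endothelial cells to 2.03 and 1.48 CPM over 3, of red blood cells to 0.871 and 1.60 CPM over 4, and of dividing cells to 7.11 and 6.27 CPM over 2. Gfap, Vip, and Cldn5 had no UMI in either library. Markers of caudal interneurons summed to 2.90 and 1.11 CPM. In the oligodendrocyte list, Mbp was at 25.8 and 41.8 CPM, and Olig1, Olig2, and Pdgfra had no more than 1 UMI. Tshz1, a gene of the Meis2 type of cell that settles in the white matter, was at 53.6 and 14.1 CPM, while Meis2 itself was at 4.06 and 0.369 CPM. Xist, transcribed from the inactive X chromosome of females, had 4 and 5 UMIs at P1 and P5 but 1394 CPM at E16.5. The Y-linked gene Eif2s3y was at 60.5, 106.8, and 43.3 CPM at E16.5, P1, and P5, Ddx3y at 27.3, 74.2, and 55.3 CPM, and Kdm5d at 27.8, 47.7, and 25.7 CPM. The E16.5 library thus held transcripts of both kinds, and the part of sex in these comparisons was not tested.

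The chosen cells held 7939735 UMIs at P1 and 9246798 at P5, of which 6891091 and 8133841 were outside mitochondrial and ribosomal protein genes. The median cell had 2068 genes at P1 and 2391 at P5, and a mitochondrial share of 6.27% and 4.35%. At equal depth, after each cell was thinned to 2000 UMIs and shallower cells were left out (290 at P1 and 201 at P5), the median was 1295 and 1289 genes. In the P1 library, 2501 of 4440 cells passed the limits on genes and mitochondrial share, against 2980 of 3406 at P5. Of the whole libraries' cell barcodes, 6 were found in both P1 and P5, and 1 of them in chosen cells of both.

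Near the limits of the rule, 334 P1 and 574 P5 cells had exactly 1 Lhx6 UMI, and 535 and 714 cells that passed the other limits on quality had none. The cells with 1 Lhx6 UMI had a median of 2050 and 3492 UMIs, and those with none 1608 and 2416 UMIs. Gad1 had a UMI in 46.1% and 39.4% of the former and in 36.3% and 31.0% of the latter. A further 360 P1 and 392 P5 cells with Lhx6 were left out for Nos1, of which 93 and 59 had a lone Nos1 UMI and no Neurod6. Just inside the gene limit, 17 and 11 cells held 701 to 750 genes, and 14 and 11 cells with Lhx6 held 651 to 700. Just inside the mitochondrial limit, 126 and 27 cells lay at 9% to 10%, and 116 and 17 cells with Lhx6 at 10% to 11%.

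Across 9366 genes with a mean of at least 10 CPM and at least 20 UMIs over both libraries, 689 (7.36%) were at least 2-fold higher at P5 and 1026 (11.0%) at least 2-fold lower, on the scale of log2(CPM + 1). The median gene lay at a log2 ratio of -0.14. On this scale, 5462 of the genes lay below their P1 level. After centering on that median 923 genes were at least 2-fold higher and 759 at least 2-fold lower, a split of 54.9% higher instead of 40.2%. For 457 of the 689 and 630 of the 1026 genes, the counting interval of the ratio lay past 2-fold. A gene near 0 in 1 library could be compared only through its level in the other, so the counts are a description of the 2 libraries.

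**Figure D1:**
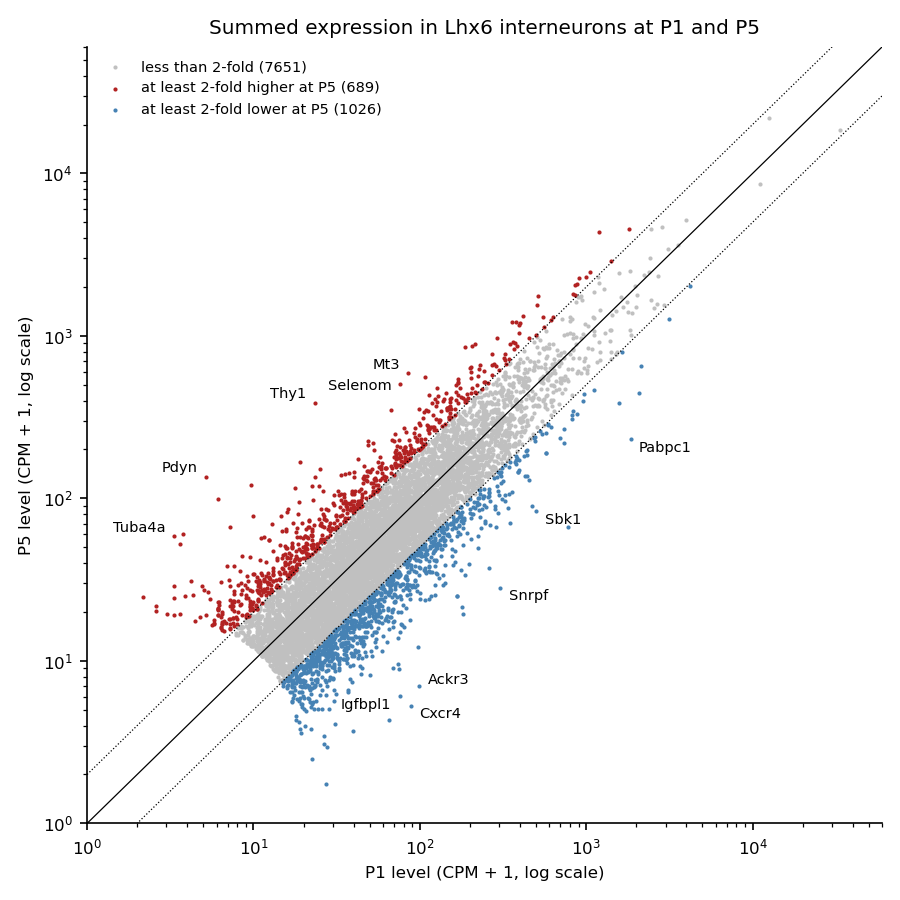
Level of each of 9366 genes at P1 (horizontal axis) and P5 (vertical axis), as CPM plus 1 on log axes, summed over 1594 and 1872 Lhx6 interneurons. Dotted lines mark a 2-fold difference; Pdyn, Thy1, Mt3, and Selenom lie far above the upper line, and Cxcr4, Ackr3, Igfbpl1, and Pabpc1 far below the lower one.

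The E16.5 library gives the level of each gene before birth, and the P1 library is shared by both steps. Of the 689 genes higher at P5 than at P1, 565 were also at least 2-fold above E16.5 at P5, 190 had their lowest level of the 3 libraries at P1, and 24 were at least 2-fold lower at P1 than at E16.5. Among all 9366 genes compared, the same counts were 1647, 1385, and 240. Of the 1026 lower genes, 659 were at least 2-fold below E16.5 at P5, compared with 1280 of all 9366. For 595 of the 1026, P1 was the highest of the 3 libraries, and 103 stood at least 2-fold above E16.5 at P1, compared with 3288 and 1066 of all 9366. Both sets were chosen on their P1 level, so nothing is read from the number with an extreme at P1. The P1 library also differs in its Cell Ranger version (3.0.2, compared with 3.1.0 for the others) and in its mitochondrial share, and the part of these in the genes that peak at P1 was not tested.

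The leading genes were ranked by log2 ratio among named genes with at least 50 CPM in the higher library and a UMI in at least 10% of its cells, 14 in each direction. Higher at P5 were Pdyn, Tuba4a, Thy1, Slc30a3, Pcp4l1, Lynx1, Lgals1, Nrip3, Mt3, Selenom, Rgs6, Slc24a2, Kcnc4, and Chrna4. Lower at P5 were Cxcr4, Ackr3, Igfbpl1, Snrpf, Snhg6, Lix1l, Neb, Bc1, Pabpc1, Sag, Btg1, Snhg9, Wdr89, and Sbk1.

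The promoters of the leading receptor genes Cxcr4 and Ackr3 and of Tuba4a are shown because these genes lead the list of lower genes as a receptor pair for the same chemokine, and the list of higher genes with a motif match. Each run holds 250 bases before and 50 after the transcription start in RefSeq (GRCm38.p6), 5′ to 3′ on the strand of the gene. Capitals mark matches on either strand to the GC box GGGCGG or the TATA box TATAAA.
Cxcr4, chr1:128592250-128592549, minus strand: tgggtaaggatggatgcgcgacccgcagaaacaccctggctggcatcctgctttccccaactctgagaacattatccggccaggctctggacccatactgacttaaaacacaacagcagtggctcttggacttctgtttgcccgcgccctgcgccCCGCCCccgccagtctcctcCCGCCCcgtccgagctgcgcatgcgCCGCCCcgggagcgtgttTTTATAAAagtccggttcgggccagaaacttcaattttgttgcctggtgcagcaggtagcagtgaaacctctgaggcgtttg
Ackr3, chr1:90203730-90204029, plus strand: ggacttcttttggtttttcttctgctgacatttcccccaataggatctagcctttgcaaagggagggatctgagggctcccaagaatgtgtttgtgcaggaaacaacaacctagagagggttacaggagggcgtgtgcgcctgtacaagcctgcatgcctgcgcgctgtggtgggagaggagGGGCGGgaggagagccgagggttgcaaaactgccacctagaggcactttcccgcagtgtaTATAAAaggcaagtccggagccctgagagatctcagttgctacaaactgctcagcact
Tuba4a, chr1:75219245-75219544, minus strand: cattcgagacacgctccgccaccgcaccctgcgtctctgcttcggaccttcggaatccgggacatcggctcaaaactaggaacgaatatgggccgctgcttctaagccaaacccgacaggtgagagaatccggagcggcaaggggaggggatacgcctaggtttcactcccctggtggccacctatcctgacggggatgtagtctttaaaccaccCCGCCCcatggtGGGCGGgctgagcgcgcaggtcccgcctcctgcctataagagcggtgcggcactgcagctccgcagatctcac

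Cxcr4 had 3 GC box matches and a TATA box that matched on both strands in overlapping letters. Ackr3 had 1 match of each kind, and Tuba4a 2 GC box matches. The GC box was found in 61.6% of the 528 promoters matched for genes higher at P5, in 68.2% of the 805 for genes lower at P5, in 67.7% of the 7375 for all genes compared, and in 35.9% of all 27025 promoters of this table. The TATA box was found in 6.82%, 7.33%, and 6.03% of these promoters, and in 14.2% of all. The E-box CACGTG was found in 7.95%, 11.1%, and 10.8%, and the cAMP response element TGACGTCA in 3.03%, 2.98%, and 3.70%. Promoters were matched for 76.6%, 78.5%, and 78.7% of these genes. With fewer than 80% matched, a comparison of the shares is void, and they are given as a description. Their median GC content was 62.0%, 61.7%, and 62.0%. The genes themselves spanned a median of 15014 bp (quartiles 5804 and 57126 bp) among those higher at P5, 24217 bp (11572 and 51556 bp) among those lower, and 27908 bp (11762 and 67607 bp) among all compared.

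Pdyn encodes prodynorphin, the precursor of opioid peptides made by a part of SST+ interneurons. In GRCm38 its gene (ENSMUSG00000027400) occupies bases 129686565 to 129699844 of chromosome 2, read from the minus strand. Its 29 UMIs at P1 gave 4.21 CPM (95% Poisson interval 2.82 to 6.04) and its 1100 UMIs at P5 gave 135.2 CPM (127.4 to 143.5), a ratio of 32.1 (22.3 to 48.2), and at E16.5 it was at 0.438 CPM. The share of cells with a Pdyn UMI was 1.38% at P1 and 17.8% at P5, and 0.614% and 11.9% at 2000 UMIs per cell. The few positive cells at P5 held 3.29 UMIs each on average. Pdyn was thus carried by a minority of the cells, mostly those with Reln. In cells with a Reln UMI it was at 7.43 and 202.5 CPM, and in cells without one at 0.320 and 8.17 CPM.

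Thy1, a cell surface glycoprotein of mature neurons, had 22.4 CPM (18.96 to 26.17) at P1 and 387.9 CPM (374.5 to 401.7) at P5, a ratio of 17.4 (14.8 to 20.5), and was found at 2000 UMIs in 2.30% and 41.5% of cells. Tuba4a, an alpha-tubulin made late in neuronal development, had 2.32 and 57.3 CPM, a ratio of 24.7 (15.0 to 43.5). Mt3, a metallothionein that binds zinc, and Slc30a3, which loads zinc into synaptic vesicles, were both in this group, at 84.2 and 590.5 CPM and at 5.08 and 97.5 CPM. Mt3 was found in 9.05% and 53.2% of thinned cells and Slc30a3 in 0.307% and 12.9%. Selenom, a selenoprotein of the endoplasmic reticulum, had 74.6 and 503.3 CPM and was found in 7.36% and 51.5% of thinned cells. Pdyn, Tuba4a, and Slc30a3 were each found in less than 13% of thinned P5 cells. In the 19 P5 cells with Neurod6, a marker of excitatory neurons, unthinned shares were 73.7% for Selenom, 47.4% for Thy1, 36.8% for both Mt3 and Tuba4a, 10.5% for Slc30a3, and 5.26% for Pdyn. Unthinned shares in the chosen P5 cells were 71.4%, 63.2%, 68.3%, 18.4%, 24.6%, and 17.8%, at a median of 4752 UMIs compared with 3974 UMIs in the Neurod6 cells. Rgs6 had a UMI in 57.9% of the Neurod6 cells and 30.1% of the chosen cells. Shares of Selenom, Tuba4a, and Rgs6 thus did not exceed those of the Neurod6 cells and are not read as a range of expression among the interneurons. Nrip3 (36.8% and 38.7%) and Slc24a2 (36.8% and 37.2%) were about equal, and Pcp4l1, Lynx1, Lgals1, Kcnc4, and Chrna4 had lower shares in the Neurod6 cells. Whether these UMIs were free RNA or made by the Neurod6 cells themselves was not tested.

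Both cholinergic genes in this group belong to a shared receptor system. Chrna4, a subunit of nicotinic acetylcholine receptors, had 11.9 and 68.1 CPM, and Lynx1, which sits at the membrane and dampens these receptors, 2.61 and 51.5 CPM. Kcnc4, which encodes the potassium channel subunit Kv3.4, had 22.4 and 135.2 CPM. Slc24a2, a sodium, potassium, and calcium exchanger, had 24.1 and 150.7 CPM, and Rgs6, which shortens G protein signaling, 16.7 and 114.3 CPM. The remaining 3 were Pcp4l1 at 2.76 and 59.8 CPM, the galectin gene Lgals1 at 8.71 and 119.4 CPM, and Nrip3 at 18.0 and 166.7 CPM. All 14 genes had their lowest level at E16.5 and their highest at P5. They were ranked on the ratio of P5 to P1, so nothing is read from their separate P1 and P5 counting intervals. The E16.5 and P1 intervals overlapped for Tuba4a (1.81 CPM at E16.5).

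**Figure D2:**
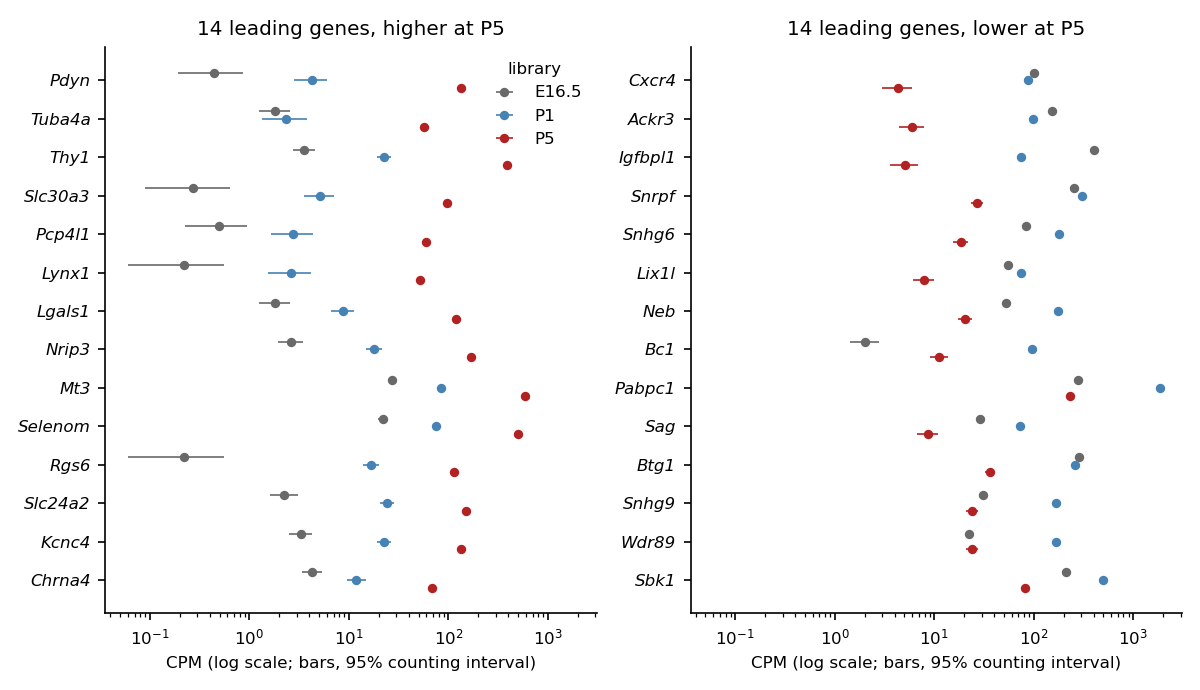
CPM of the 28 leading genes in the E16.5 (gray), P1 (blue), and P5 (red) libraries on a log axis, with 95% Poisson intervals of the summed UMIs as bars. The 14 genes on the left increase in order of stage, whereas on the right Bc1, Pabpc1, Snhg9, and Wdr89 are high in the P1 library and low in both others.

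Among the genes lower at P5, the leading pair forms a known receptor system. Cxcr4 is the chemokine receptor for Cxcl12 that keeps migrating interneurons in their streams, and Ackr3 is an atypical receptor that scavenges the same ligand. Cxcr4 (chromosome 1, 128588199 to 128592293, minus strand, ENSMUSG00000045382) had 600 UMIs at P1, which gave 87.1 CPM (80.2 to 94.3), and 35 UMIs at P5, which gave 4.30 CPM (3.00 to 5.98). It was 20.2-fold (14.4 to 29.3) lower at P5. Ackr3 (chromosome 1, 90203980 to 90216751, plus strand, ENSMUSG00000044337) had 98.5 CPM (91.3 to 106.2) and 6.02 CPM (4.46 to 7.96), and was 16.4-fold (12.2 to 22.3) lower. The share of thinned cells with a UMI was 15.4% and 0.778% for Cxcr4 and 19.02% and 0.958% for Ackr3. At E16.5 they were at 101.3 and 152.3 CPM. Both were chosen on their difference between P1 and P5, so the smaller difference between E16.5 and P1 is not read as timing.

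Igfbpl1, a marker of young neurons, was at 401.8 CPM at E16.5, 74.7 CPM (68.4 to 81.5) at P1, and 5.04 CPM (3.62 to 6.84) at P5, and so decreased at both steps. Btg1, a gene linked to the exit from the cell cycle, was at 285.7, 258.4, and 36.2 CPM, and Lix1l at 54.7, 74.4, and 7.87 CPM. Snrpf, a core protein of the spliceosome, was at 255.4, 303.7, and 27.2 CPM and found in 43.9% of thinned cells at P1 and 4.49% at P5.

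The remaining 8 of the leading lower genes follow. Pabpc1, which binds the poly(A) tail of mRNAs, was at 281.5, 1848, and 230.3 CPM at E16.5, P1, and P5, and found in 94.7% and 33.2% of thinned cells at P1 and P5. Bc1, a short non-coding RNA of dendrites, was at 2.02, 96.5, and 11.2 CPM. The small nucleolar RNA host genes Snhg6 and Snhg9 were at 84.6, 181.7, and 18.4 CPM and at 30.9, 166.2, and 24.0 CPM. Wdr89 was at 22.6, 166.6, and 24.2 CPM, Neb, which encodes the muscle protein nebulin, at 53.2, 177.2, and 20.4 CPM, Sag at 28.6, 73.1, and 8.61 CPM, and the kinase gene Sbk1 at 209.7, 500.1, and 82.3 CPM. All 8 thus had their highest level at P1, as had Snrpf and Lix1l. These genes were ranked on a high level at P1 over P5, so nothing is read from their number. Reads of Pabpc1 and Snrpf may be split with near-identical pseudogene copies.

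These differences were also seen in cells that the rule left out of the same libraries. In 354 P1 and 392 P5 cells with Lhx6 and Nos1 but no Neurod6, Pabpc1 was at 1685 and 191.0 CPM, Snrpf at 297.8 and 25.1 CPM, and Wdr89 at 157.7 and 23.0 CPM. In 500 and 695 cells without Lhx6 or Neurod6, Pabpc1 was at 1345 and 201.0 CPM. Cxcr4 was at 24.4 and 2.16 CPM in the Nos1 cells, and Ackr3 at 27.1 CPM at P1 with no UMI at P5, where 0 counts allow a level of up to 3 UMIs, or 2.15 CPM. Pdyn was at 8.80 and 51.0 CPM in the Nos1 cells. Rgs6 had a log2 ratio of 0.36 in Nos1 cells (18.3 and 23.7 CPM) and of 2.70 in the chosen cells, and Slc24a2 of 1.13 (14.9 and 33.8 CPM) and 2.60. The difference between these sets of cells was not tested.

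Reln, a secreted glycoprotein that marks many Martinotti cells (MCs), had 393.1 and 539.8 CPM in the chosen cells, and 39.7% of them at P1 and 55.8% at P5 had a UMI (29.7% and 43.1% when thinned). The share of cells with this marker therefore differed between the libraries, and each leading gene was read in cells with and without Reln. Whether the mix of cells or the Reln level within the same cells differed was not tested. Cells with Reln were deeper, with a median of 5684 and 5548 UMIs at P1 and P5 compared with 3166 and 3540 UMIs in those without. In cells with Reln, 13 of the 14 higher genes had log2 ratios of 2.23 to 3.90 and Pdyn 4.59. In cells without Reln, the 14 ratios lay between 2.06 (Chrna4) and 4.82 (Pcp4l1). Lgals1 was at 11.7 and 92.1 CPM with Reln and at 5.13 and 170.9 CPM without it, and Pcp4l1 at 2.65 and 34.0 CPM and at 2.88 and 108.4 CPM. At P5, Pcp4l1, Lynx1, and Lgals1 were thus higher in cells without Reln, and Mt3 slightly so (583.1 CPM with Reln and 604.5 CPM without). The other leading higher genes were higher in cells with Reln, most so in relative terms Pdyn, Chrna4, and Rgs6. Rgs6 was at 154.7 CPM with Reln and 38.0 CPM without it at P5, and Chrna4 at 94.0 and 19.2 CPM. The 14 lower genes had log2 ratios from -3.87 to -2.65 with Reln and from -4.50 to -2.44 without it.

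**Figure D3:**
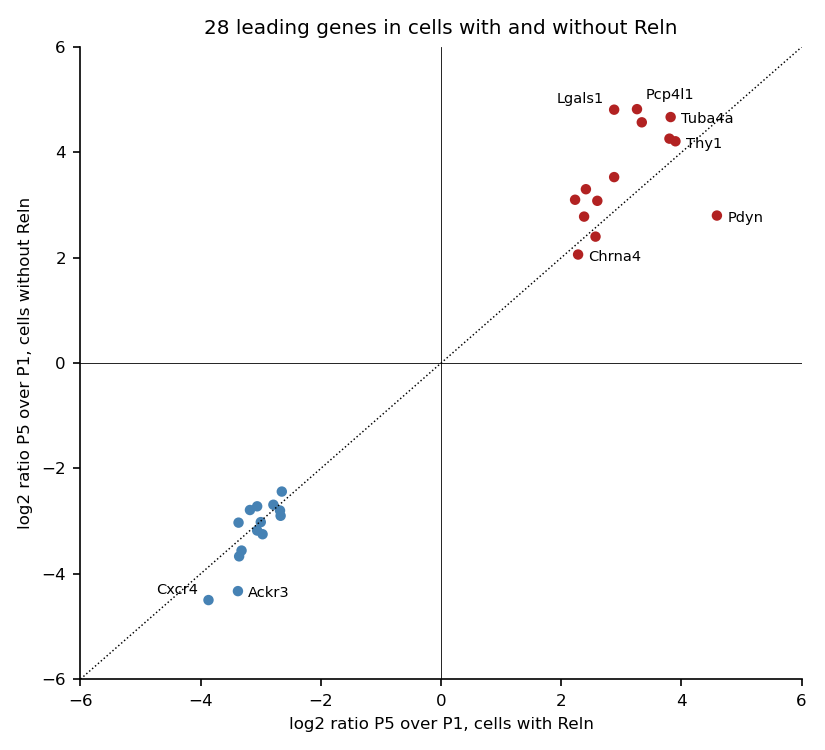
Log2 ratio of CPM plus 1, P5 over P1, of the 28 leading genes in cells with a Reln UMI (horizontal axis) and without one (vertical axis), with the diagonal dotted. All 28 points lie in the quadrants of equal sign, and Pdyn lies farthest below the diagonal (4.59 with Reln, 2.80 without). The genes were ranked on the ratio over all these cells, so equal signs follow largely from the choice.

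Gene lists of neuronal functions differed in how they were placed. A list is described by its median log2 ratio, which is to be read against -0.14 over all genes compared, and by its genes past 2-fold, to be read against 7.36% higher and 11.0% lower. A gene can belong to several lists.

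**Figure D4:**
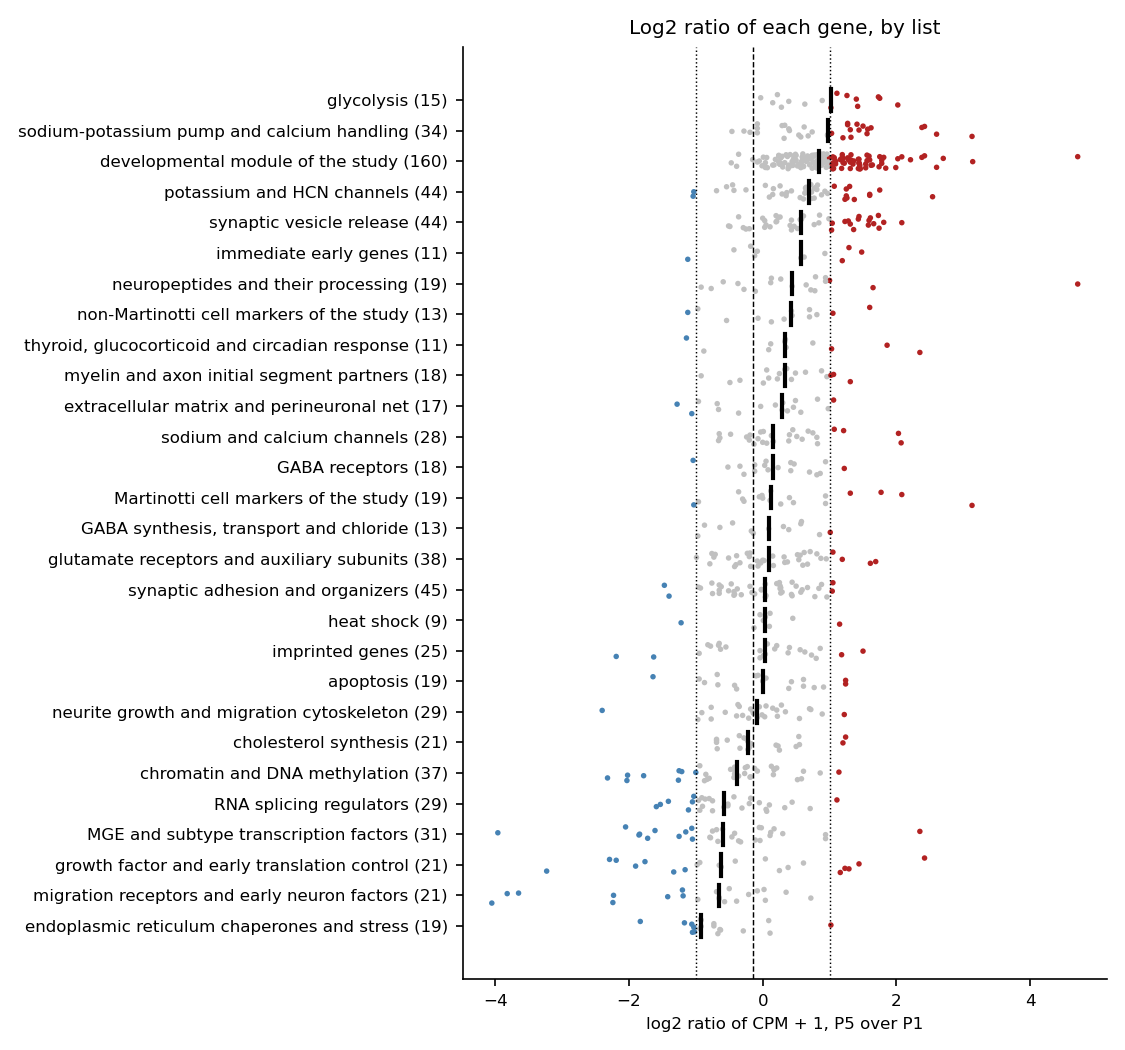
Log2 ratio of CPM plus 1, P5 over P1, of every gene compared in 28 lists (number of genes in brackets), with red and blue points for genes at least 2-fold higher and lower. Black bars mark list medians, the dashed line the median of all genes at -0.14, and dotted lines 2-fold. The medians run from -0.92 (endoplasmic reticulum chaperones) to 1.02 (glycolysis), and their order changes with the processing.

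Genes of synaptic vesicle release, which hold, dock, and fuse vesicles, were mostly higher at P5. Of 44 compared, 16 were at least 2-fold higher and 0 at least 2-fold lower, with a median of 0.57, and their summed level was 6241, 10600, and 19114 CPM at E16.5, P1, and P5. Sncb, which encodes beta-synuclein, was at 204.9 and 870.8 CPM (ratio 4.01 to 4.50 by counting interval) and found in 19.02% and 69.2% of thinned cells. The complexins Cplx2 and Cplx1, which clamp and trigger fusion, were at 418.2 and 1324 CPM and at 167.6 and 513.9 CPM. The vesicle proteins Synpr and Syngr1 were at 70.0 and 248.5 CPM and at 79.7 and 268.5 CPM, and Dnm1, the dynamin that pinches off recycling vesicles, at 122.6 and 408.0 CPM. Syt1, the calcium sensor of release, was at 1410 and 2879 CPM. The fusion protein gene Snap25 was slightly lower at P5, at 475.1 and 414.2 CPM, a log2 ratio of -0.20.

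The difference in this list was broad across cells. At 2000 UMIs per cell, its genes had a median of 15 UMIs (5th to 95th percentile 7 to 29) in P1 cells and 33 UMIs (19 to 47) in P5 cells, and 98.7% of P5 cells were above the P1 median. The E16.5 median was 10 UMIs. These are cells of 1 library each and describe its spread.

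Sodium-potassium pump and calcium handling genes, which restore ion gradients after firing and buffer calcium, had a median of 0.97, with 16 of 34 at least 2-fold higher and 0 lower. Fxyd7, a brain subunit that tunes the pump, was at 106.4 and 559.5 CPM and found in 9.82% and 49.0% of thinned cells. Nrgn, the calmodulin-binding neurogranin, was at 21.5 and 119.0 CPM, Camk2n2, an inhibitor of the kinase CaMKII, at 503.0 and 1550 CPM, and Camk2a at 16.1 and 49.8 CPM. Calb2, the calcium buffer calretinin of a part of MCs, was at 2.32 and 28.0 CPM, a ratio of 7.28 to 21.5 by counting interval. At equal depth, the median cell held 16 UMIs of the list at P1 and 30 at P5, and 96.6% of P5 cells were above the P1 median.

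Glycolysis had a median of 1.02, with 8 of 15 genes at least 2-fold higher and 0 lower. Gapdh was at 290.8 and 969.3 CPM, Eno2, the neuronal enolase, at 41.8 and 172.6 CPM, Gpi1 at 66.8 and 226.2 CPM, Tpi1 at 153.5 and 412.7 CPM, Eno1 at 12.0 and 33.3 CPM, and Pkm at 145.3 and 350.4 CPM. For 5 of these 6 genes, P1 had the lowest level of the 3 libraries, compared with 190 of all 689 genes at least 2-fold higher at P5. The 6 were chosen by their increase from P1 to P5, so nothing is read from this count. Gapdh stood at 1081 CPM, Eno1 at 68.6 CPM, and Pkm at 385.2 CPM at E16.5, and the list summed to 3030, 1710, and 3808 CPM at the 3 stages. Several of these genes also have processed pseudogenes.

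Potassium and HCN channel genes, which set the resting potential and the shape and rate of spikes, had a median of 0.69, with 11 of 44 at least 2-fold higher and 2 lower. Besides Kcnc4, Kcna4 was at 9.14 and 33.1 CPM, Kcna2 at 43.4 and 113.8 CPM, the Kv4 partner Kcnip4 at 18.1 and 57.2 CPM, Hcn2, a channel of the hyperpolarization-activated current, at 34.3 and 105.6 CPM, and Kcnab1 at 13.2 and 34.1 CPM. Kcnc1 and Kcnc2, which encode the fast Kv3 channels, were at 132.6 and 147.2 CPM and at 134.5 and 237.9 CPM. Sodium and calcium channel genes had a median of 0.15, with 4 of 28 at least 2-fold higher and 0 lower. Among these were Scn2b, which encodes a beta subunit of sodium channels (16.3 and 69.3 CPM), and the calcium channel genes Cacna1i (11.8 and 28.5 CPM) and Cacna2d2 (245.8 and 518.5 CPM). Cacna1i was past 2-fold only in cells with Reln, and Cacna2d2 only in those without it. Among 18 axon initial segment and myelin partner genes, Map1a (79.5 and 198.1 CPM), Sptbn4 (30.8 and 65.4 CPM), and Dynll2 (559.9 and 1137 CPM) were at least 2-fold higher and 0 lower, with a median of 0.34.

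Neuropeptide genes had a median of 0.44, with 2 of 19 at least 2-fold higher and 0 lower. Beside Pdyn, this was Cort, the somatostatin relative cortistatin, at 79.3, 203.0, and 638.8 CPM at E16.5, P1, and P5, found in 13.9% and 33.8% of thinned cells at P1 and P5. Sst differed by a log2 ratio of -0.11.

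GABA genes were split. Slc32a1, the vesicular GABA transporter, was at 255.5 and 514.1 CPM, a log2 ratio of 1.01, and was the only gene past 2-fold of 13 that make, carry, or respond to chloride with GABA, whose median was 0.09. Gad1, the second GABA-producing enzyme, was at 334.8 and 170.0 CPM (log2 ratio -0.97, counting interval of the ratio 0.475 to 0.543), in the opposite direction to Gad2 (0.31). Of 18 GABA receptor genes, Gabbr2 (203.6 and 476.2 CPM) was at least 2-fold higher and Gabrg1 (14.2 and 6.39 CPM) at least 2-fold lower. Of 38 glutamate receptor genes, 20 had a log2 ratio above 0 and 18 below it, with a median of 0.09. At least 2-fold higher were 4 of the 38 and lower 0, compared with 7.36% and 11.0% of all genes compared. The 4 were the NMDA receptor subunit genes Grin2d (68.6 and 224.4 CPM), Grin1 (131.8 and 301.2 CPM), and Grin3a (856.9 and 1779 CPM), together with Cacng5 (7.40 and 24.7 CPM), which encodes an auxiliary protein of AMPA receptors.

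Synaptic adhesion genes had a median of 0.04, with 2 of 45 past 2-fold in each direction. Cadm1 (739.4 and 266.4 CPM) and Nxph2 (83.3 and 30.9 CPM) were lower, and Cadm2 (631.7 and 1298 CPM) and Cntn5 (23.2 and 49.2 CPM) higher. Nxph1, a neurexin ligand of interneurons, was at 1019 and 649.5 CPM, and Elfn1, which recruits facilitating inputs onto SST+ cells, at 294.3 and 354.8 CPM. Of 17 extracellular matrix genes, the proteoglycans Vcan (110.0 and 44.6 CPM) and Ncan (347.4 and 166.2 CPM) were at least 2-fold lower and Col19a1 (61.1 and 128.1 CPM) higher.

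Genes of migration and of young neurons were mostly lower at P5. Of 21 migration receptors and early neuron factors compared, 8 were at least 2-fold lower and 0 higher, with a median of -0.65, and their sum was 11176, 6442, and 3306 CPM at E16.5, P1, and P5. Sox11 and Sox4, the SoxC factors of young neurons, were at 4227, 2089, and 442.8 CPM and at 2213, 817.7, and 305.0 CPM, and Dlx2, which drives the birth of interneurons, at 238.9, 137.3, and 28.4 CPM. Most of the decrease of the sum at both steps lay in Sox11 and Sox4, so the sum does not measure the migration receptors alone. Sox11 was found in 92.1% of thinned cells at P1 and 52.2% at P5. In single cells thinned to 2000 UMIs, the list had a median of 12 UMIs (5th to 95th percentile 5 to 22) at P1 and 6 UMIs (2 to 12) at P5, and 94.7% of P5 cells were below the P1 median.

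**Figure D5:**
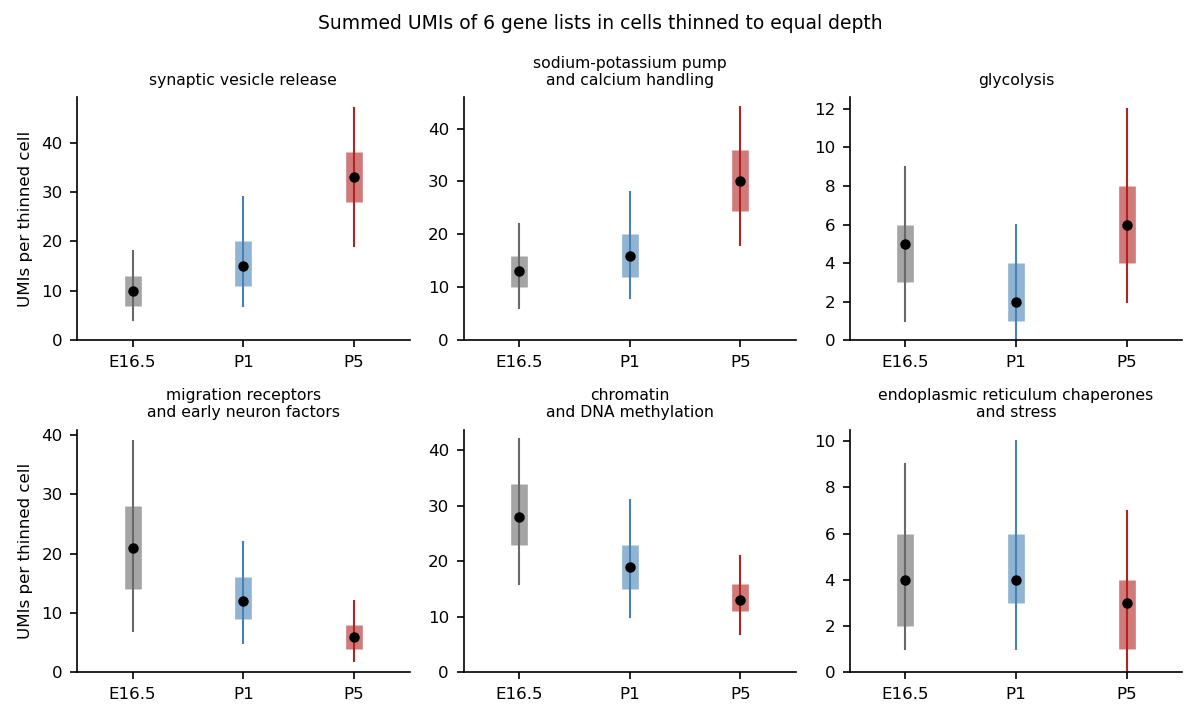
UMIs summed over 6 gene lists in cells thinned to 2000 UMIs (3086 embryonic cells, 1304 P1 cells, and 1671 P5 cells), with the median (point), the quartiles (thick bar), and the 5th to 95th percentile (thin line). Vesicle release is higher and the list of migration receptors and early neuron factors lower at each later stage, while glycolysis is lowest at P1.

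The cytoskeleton of growing neurites lay close to all genes as a list, with 1 of 29 genes past 2-fold in each direction and a median of -0.08. Cd24a, a surface protein of young neurons, was lower (470.0 and 88.4 CPM, in 53.4% and 13.8% of thinned cells), and Stmn3 higher (994.9 and 2320 CPM). Dcx, which stabilizes microtubules in migrating neurons, was at 1415 and 721.8 CPM, a log2 ratio of -0.97.

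Transcription factors of the MGE and of SST subtypes had a median of -0.60, with 10 of 31 at least 2-fold lower and 1 higher. Maf, a factor that guides SST+ interneuron fate, was at 741.3, 2138, and 648.2 CPM at E16.5, P1, and P5, a peak at P1. Id3 (26.1 and 0.738 CPM), Id2 (64.4 and 14.8 CPM), Tshz1, and Tcf12 (200.8 and 55.5 CPM) were also lower, and Mef2c, a factor tied to activity and synapse number, was at 2649 and 1572 CPM. Sox6, which MGE interneurons need to settle and mature, was at 354.4 and 282.5 CPM. The gene in this list that was higher, Klf9, responds to thyroid and stress hormones. It was at 0.985, 10.2, and 55.7 CPM at the 3 stages. Of 11 hormone and circadian response genes, Klf9, the glucocorticoid receptor gene Nr3c1 (8.13 and 32.2 CPM), and the thyroid receptor gene Thrb (84.8 and 174.1 CPM) were at least 2-fold higher, and Fkbp5, a glucocorticoid target, at least 2-fold lower (38.3 and 16.8 CPM), with a median of 0.34.

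Chromatin genes had a median of -0.39, with 7 of 37 at least 2-fold lower and 1 higher. Ezh2, which writes the repressive histone mark of Polycomb, was at 79.5 and 15.1 CPM, Kdm6b, which erases it, at 157.6 and 37.7 CPM, the histone gene H3f3a at 1571 and 386.4 CPM, Hdac2 at 161.2 and 46.4 CPM, Hmgb1 at 952.4 and 398.3 CPM, and Hmgb3 at 438.7 and 183.6 CPM. Ezh2, H3f3a, and Hmgb1 were higher still at E16.5, with 142.4, 3728, and 1508 CPM. RNA splicing regulators had a median of -0.58, with 6 of 29 at least 2-fold lower and 1 higher. Hnrnpa2b1 was at 571.0 and 189.2 CPM, the neuronal ELAV gene Elavl4 at 387.5 and 144.9 CPM, Celf1 at 304.2 and 140.8 CPM, Msi1 at 81.6 and 27.7 CPM, and Rbfox2 at 376.7 and 181.3 CPM, whereas Mbnl2 was at 22.9 and 50.7 CPM.

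Growth factor and early translation genes had a median of -0.62 and were split, with 7 of 21 at least 2-fold lower and 5 higher. Igf1r, the receptor of insulin-like growth factor 1, was at 206.4, 175.3, and 35.0 CPM at E16.5, P1, and P5, and the binding proteins Igfbp2 at 83.3, 26.9, and 1.97 CPM and Igfbp4 at 248.6, 118.1, and 34.1 CPM. Mycn was at 73.3 and 18.9 CPM, and the growth inhibitor gene Cdkn1c at 501.6, 22.1, and 4.06 CPM. Ccnd2, a cyclin, was higher at each stage, at 3.39, 13.6, and 77.1 CPM. Its difference between P1 and P5 lay in the cells with Reln, at 18.8 and 112.8 CPM, and was below 2-fold in those without Reln, at 7.37 and 9.60 CPM. Among 25 imprinted genes, 2 were past 2-fold in each direction, with a median of 0.04. Besides Cdkn1c, Sgce was lower (45.7 and 14.1 CPM), and Peg3 (181.5 and 412.4 CPM) and Zim1 (7.98 and 24.5 CPM) were higher. Peg3 was past 2-fold with Reln (189.1 and 477.5 CPM) but not without it (172.4 and 289.3 CPM).

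Genes of stress, which move with dissociation and cell health, were also compared. Endoplasmic reticulum chaperones had a median of -0.92, with 6 of 19 at least 2-fold lower and 1 higher, and summed to 2449, 2589, and 1671 CPM at E16.5, P1, and P5. Manf was at 232.6 and 64.9 CPM, Hsp90b1 at 277.7 and 132.4 CPM, Pdia6 at 122.9 and 54.2 CPM, Pdia4 at 57.8 and 27.3 CPM, and Creld2 at 27.6 and 13.0 CPM, while Ddit3, which is induced by prolonged stress of this organelle, was at 34.5 and 71.2 CPM. Thinned P1 and P5 cells held a median of 4 and 3 UMIs of this list. Immediate early genes, which neurons switch on within minutes of activity or handling, had a median of 0.57 over 11 genes, with Gadd45g (10.9 and 32.2 CPM), Jund (151.2 and 370.9 CPM), and Fos (10.2 and 24.5 CPM) at least 2-fold higher and Dusp1 (19.9 and 8.61 CPM) lower. Fos was at 110.3 CPM at E16.5. Of 9 heat shock genes, Dnajb1 was higher (38.5 and 86.8 CPM) and Hspd1 lower (377.2 and 160.8 CPM). Since the P5 tissue was digested in another way, an effect of handling cannot be told apart from age here.

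Apoptosis genes had a median of 0.00 over 19 genes, with the pro-apoptotic genes Bad (53.8 and 129.0 CPM) and Bbc3 (19.7 and 48.0 CPM) at least 2-fold higher and Apaf1 (35.1 and 10.6 CPM) lower. Cholesterol synthesis had a median of -0.22 over 21 genes, with Pmvk (74.2 and 176.2 CPM) and Mvd (27.1 and 63.4 CPM) at least 2-fold higher and 0 lower.

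Lists that the study chose on these same libraries are not independent of them. Of 160 symbols read from its printed list of developmental module genes, which may differ from the module as defined, 60 were at least 2-fold higher at P5 than at P1 and 0 lower, with a median of 0.84, led by Pdyn, Nrip3, Rgs6, Slc24a2, Nrgn, and Fxyd7. Among the 19 MC markers compared, Calb2, Gpx3 (13.9 and 62.3 CPM), Myh8 (5.08 and 19.8 CPM), and Unc13c (61.2 and 153.2 CPM) were at least 2-fold higher and Dpp10 (167.6 and 81.4 CPM) lower. Of 13 markers of non-Martinotti cells (nMCs), Kcnip4 and Cntn5 were at least 2-fold higher and Ptprd (543.9 and 249.1 CPM) lower. The medians were 0.12 and 0.43.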

How the data were processed

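GFP+ cells of the NCx at E16.5, P1, and P5 were sequenced in 1 library of pooled animals each. The authors aligned reads to GRCm38 with Cell Ranger (3.1.0, and 3.0.2 at P1, per the file headers) and deposited UMI counts for 31053 genes per cell, without normalization. STAR and Seurat are also named in the submitters' processing notes. Ambient RNA and doublets were not removed here beyond the selection of cells.

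The cells, the gene lists, and the rules for named genes were chosen with earlier results of these data known. UMIs were summed per library and scaled to CPM without 13 mitochondrial and 94 ribosomal protein genes. Log2 ratios were taken after adding 1 CPM, over genes with a mean of at least 10 CPM and 20 UMIs. A difference was counted from 2-fold on. With 1 library per stage, no test was run. From each list, up to 6 genes past 2-fold were named by size of change, and the 2 with the highest mean CPM were added where fewer than 2 passed, beside 14 leading genes in each direction. Mitochondrial, ribosomal protein, hemoglobin, X inactivation, and Y-linked genes, unnamed models, Lhx6, Nos1, and Neurod6 could not lead. Some genes that these rules name are not reported here. Other members of the lists named in the text, for their known roles, were chosen after their values were seen. Intervals are exact Poisson for levels, exact conditional binomial for ratios, and Clopper-Pearson for shares, at 95%. Totals per library were 15654107 and 13429055 UMIs at P1 and P5. Gene spans came from GENCODE M21 and promoters from RefSeq. Python 3.11.15 with numpy 2.4.6, scipy 1.17.1, and pandas 2.3.3 and R 4.3.3 with edgeR 4.0.16 (for TMM factors, as an alternative) were used, and the summary was tested on simulated data.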

Additional observations from a re-analysis of the deposited data

How the results depend on the processing

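The main limits are 1 library per stage, other digestion and software versions between the libraries, and free RNA, whose part was not tested. No paired analysis was possible because each stage has 1 library. Over 16 alternatives, the count of genes at least 2-fold higher at P5 (689) moved past 1.5 times with a pseudocount of 10 CPM (421), with no filter on low values (1270), with a filter at 50 CPM (354), and in cells with a mitochondrial share under 5% (1038, over 422 P1 cells). The count of genes at least 2-fold lower (1026) did so with the pseudocount of 10 CPM (543) and the filter at 50 CPM (360). By construction, a larger pseudocount or a stricter filter passes fewer genes of low level; for the mitochondrial limit, the cause was not tested. Under the other alternatives (scaling, thinning, Lhx6, Sst, or Reln limits, and leaving out Cxcr4 or Igfbpl1 cells, stressed cells, or the deepest cells) both stayed within 1.5 times. Of 131 genes named from the lists or leading, 129 kept their sign under all 16 alternatives, and 92 of the 129 past 2-fold remained past it. The 2 exceptions in sign, Cxcr4 and Igfbpl1, have no UMI left where cells with them are left out. Most of the 131 genes were chosen for a difference past 2-fold, and the alternatives reuse the same 2 libraries. A kept sign was thus likely in advance and is not read as support. Of 28 list medians, 20 kept their sign, among them vesicle release (0.46 to 1.02), pump and calcium handling (0.82 to 1.28), glycolysis (0.84 to 1.39), potassium channels (0.53 to 0.86), migration (-0.95 to -0.51), and endoplasmic reticulum chaperones (-1.01 to -0.69). The 8 that did not lay between -0.08 and 0.12.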
